A study of Caenorhabditis elegans with 78 samples.

Results

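H3K36me3 peaks on the X chromosome were taken from the peak lists of 4 ChIP sequencing libraries as every listed peak on chrX, which gave 4116 of the 53275 H3K36me3 peaks and of the 300638 peaks in all 20 peak lists of the series. The libraries came from whole young adult *C. elegans* grown at 25°C and collected in the third generation at this temperature (F3), as 2 libraries of wild-type (N2) and 2 of *jmjd-5(zr1234)* animals. The *zr1234* allele changes residues of the catalytic JmjC domain of JMJD-5, a protein that regulates H3K36me2. The labels give 1 input library per genotype at 25°C, so that the libraries of a genotype may share their control, and they do not say whether the replicates are separate cultures, so that p-values measure only the spread between these libraries. Whole animals hold germ cells and somatic cells together, and a peak in few cells or at low levels in many cells cannot be told apart. The lists give a position, a fold enrichment over the control and a −log10 p for each peak without calibration to the *Drosophila* chromatin added as a spike-in, so that values can be compared within a library and only relatively between libraries. Sequencing depth is unknown, and positions are in the ce10 build.

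H3K36me3 is laid down along the bodies of transcribed genes. In *C. elegans*, MET-1 adds it together with the elongating RNA polymerase, and MES-4 maintains H3K36 methylation in germ cells on genes that were expressed in the germline. The X chromosome is largely silent in much of the germline and carries repressive H3K27me3 there, and its genes are expressed mostly in somatic cells and late oocytes.

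X was the chromosome with the fewest H3K36me3 peaks for its length and with the weakest ones, in each of the 4 libraries. The N2 libraries listed 1023 X peaks of 13351 and 989 of 13487, and the *jmjd-5(zr1234)* libraries 1055 of 13136 and 1049 of 13301. These were 7.66% (95% Wilson interval 7.22% to 8.13%, for counting error only) and 7.33% (6.91% to 7.79%) of all peaks in N2 and 8.03% (7.58% to 8.51%) and 7.89% (7.44% to 8.36%) in *jmjd-5(zr1234)* animals. The density on X was 57.7 and 55.8 peaks per Mb in N2 and 59.6 and 59.2 in *jmjd-5(zr1234)* animals, against 146 to 151 peaks per Mb on the 5 autosomes combined. Chromosome V, the next sparsest, had between 81.5 and 83.0 peaks per Mb. X peaks covered 3.49% to 3.66% of the span of X. Gene content was not part of this comparison, since peaks were not assigned to genes.

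The fold enrichment of X peaks had a median of 3.59 and 3.41 in N2 and of 3.72 and 3.62 in *jmjd-5(zr1234)* libraries. Autosomal peaks of the same libraries had medians of 4.49, 4.32, 4.50 and 4.44. On the log2 scale X minus autosomes was -0.32, -0.34, -0.27 and -0.29, with a mean of -0.31 ± 0.03 (SD, n = 4, lower in 4 of 4 libraries, exact two-sided sign-flip permutation test, p = 0.125, its lowest possible value, Benjamini-Hochberg adjusted p = 0.167 for the 4 comparisons of X with autosomes). The strong end of the lists held few X peaks. Only 5 and 9 N2 and 11 and 9 *jmjd-5(zr1234)* X peaks were above the 90th percentile of fold enrichment in their library, and the strongest X peak of a library reached 7.20 to 7.61, against 11.3 to 12.3 on autosomes. The weak end held many, with 20.9% to 29.8% of X peaks under a −log10 p of 20, against 12.3% to 13.6% of autosomal peaks. No listed peak had a −log10 p under 10, and the running numbers in the peak names showed that between 37 and 53 X peaks per library, 3.39% to 5.09% of those called, had been left out of the lists, against 2.08% to 2.56% on autosomes.

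**Figure D1:**
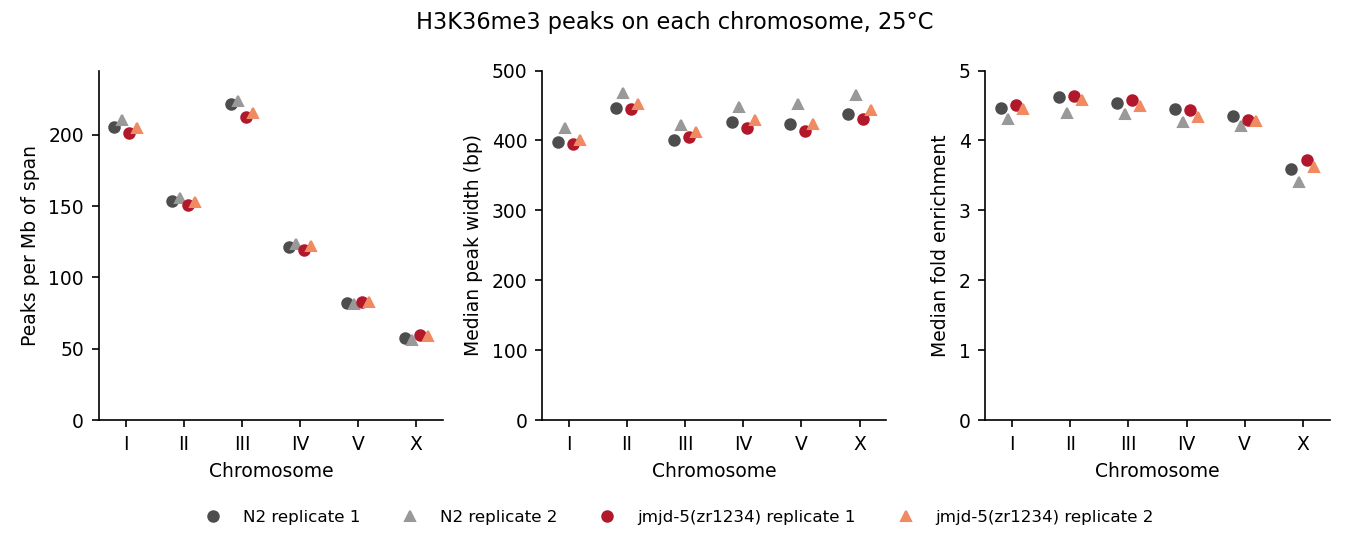
H3K36me3 peaks per Mb of span (left), median peak width in bp (middle) and median fold enrichment (right) on each chromosome, with 1 point per library (N2 in grey, *jmjd-5(zr1234)* in red). X has the lowest density (55.8 to 59.6 peaks per Mb) and the lowest fold enrichment (3.41 to 3.72) in each library, while its width (431 to 465 bp) lies close to that of chromosome II (445 to 468 bp).

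X peaks were slightly wider than autosomal peaks although they were weaker. Their median width was 438 and 465 bp in N2 and 431 and 444 bp in *jmjd-5(zr1234)* animals, against 417, 439, 413 and 422 bp on autosomes. X exceeded the autosomes by 21, 26, 18 and 22 bp, with a mean of 21.75 ± 3.30 bp (SD, n = 4, wider in 4 of 4 libraries, exact sign-flip permutation test, p = 0.125, its lowest possible value, adjusted p = 0.167). The excess is not particular to X, since chromosome II had a larger median width than X in every library (446, 468, 445 and 452 bp). It was larger under 3 other settings. Among peaks at a −log10 p of 20 or more it was 62.9 bp, among the 10000 strongest peaks of each library 105 bp, and with peaks under 200 bp apart merged 42.0 bp. The middle range of X widths ran from 285 to 292 bp at the lower quartile to 734 to 788 bp at the upper, and 137 to 156 X peaks per library, 13.4% to 15.2%, were wider than 1 kb, against 11.3% to 12.8% on autosomes.

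Split by fold enrichment, in classes chosen after the values were seen, the excess of X was found above a fold of 3. Below 3, where 21.9% to 31.5% of X peaks lay, X minus autosomes was -19.0 and 16.0 bp in N2 and 1.5 and 9.0 bp in *jmjd-5(zr1234)* libraries. Between 3 and 4 it was 48.5 to 68.5 bp, and between 4 and 5 it was 94.0 to 140 bp. At 5 and over, X peaks were wider by 106 and 118 bp in N2 and by 139 and 284 bp in *jmjd-5(zr1234)* libraries, from 60 to 103 X peaks each.

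**Figure D2:**
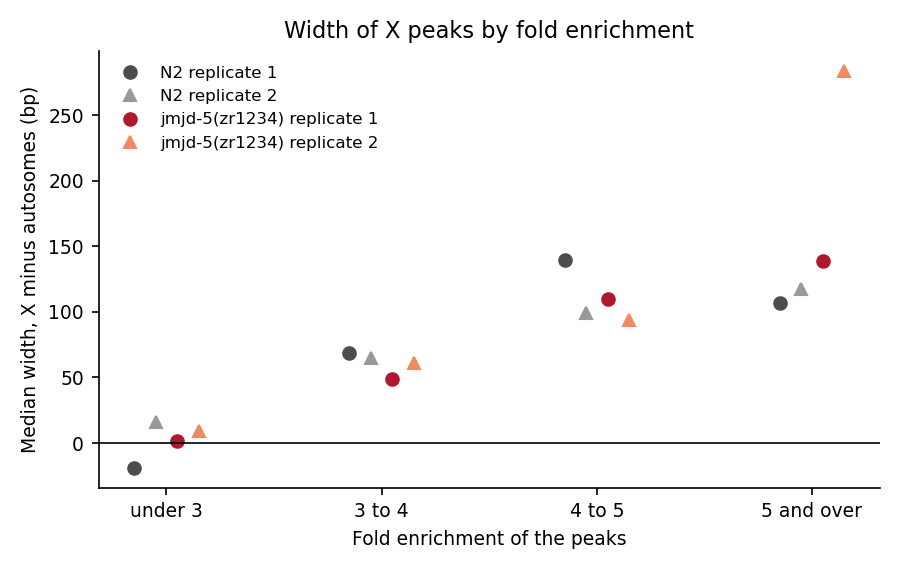
Median peak width on X minus that on autosomes, in bp, for peaks in 4 classes of fold enrichment, with 1 point per library. Points below a fold of 3 scatter around 0 (-19.0 to 16.0 bp), and all points above lie between 48.5 and 284 bp.

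The other marks at 25°C showed a different width on X. H3K36me2 peaks on X were narrower than on autosomes, with a mean difference of -38.5 ± 14.4 bp. So were H3K27me3 peaks, with -32.6 ± 4.71 bp (SD, n = 4 each, genotypes pooled). This held in 4 of 4 libraries of each mark. For H3K36me2 the difference was -26.5 and -31.0 bp in N2 and -59.0 and -37.5 bp in *jmjd-5(zr1234)* animals. For H3K27me3 it was -37.0 and -36.0 bp in N2 and -30.5 and -27.0 bp in *jmjd-5(zr1234)* animals. The X minus autosome width of H3K36me3 exceeded that of H3K36me2 by 60.3 bp and that of H3K27me3 by 54.4 bp (exact permutation within genotypes, p = 0.0556, its lowest possible value, adjusted p = 0.0667 over 6 comparisons between marks, which were added after the values were seen). In fold enrichment, X minus autosomes had a mean over both genotypes of -0.31 for H3K36me3 and -0.31 for H3K36me2 on the log2 scale (exact permutation within genotypes, p = 0.944). The equal means hide opposite orders in the genotypes. In N2 the values were -0.32 and -0.34 for H3K36me3 and -0.20 and -0.33 for H3K36me2, with overlap. In *jmjd-5(zr1234)* animals they were -0.27 and -0.29 for H3K36me3 and -0.35 and -0.37 for H3K36me2, without overlap. H3K27me3 peaks were nearly as strong on X as on autosomes, at -0.05. Of the peaks of each mark, X held 7.73% ± 0.304 for H3K36me3, 2.48% ± 0.552 for H3K36me2 and 16.0% ± 0.188 for H3K27me3 (SD, n = 4, genotypes pooled). For H3K36me2 the share was 1.87% and 2.15% in N2 and 2.96% and 2.93% in *jmjd-5(zr1234)* animals.

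H3K36me3 peaks were found along the whole of X, in 3 dense blocks and a sparser remainder. In 1 Mb bins counted from the left end of the chromosome, bin 1 held 95 and 95 peaks in N2 and 96 and 89 in *jmjd-5(zr1234)* animals. Bin 5 held 96, 83, 97 and 94 peaks, and bin 15 held 89, 84, 86 and 84. Together these bins held 26.4% of X peaks. The fewest peaks in a full bin were in bin 7, with 40 and 31 in N2 and 40 and 37 in *jmjd-5(zr1234)* animals, a mean of 37.0 and 2.53 times fewer than in bin 1. The coefficient of variation over the 17 full bins was 29.8%, within the range of 19.9% to 40.1% on the autosomes. With the chromosome cut into 3 sections of equal length, 35.9% to 36.5% of X peaks lay in the left, 31.5% to 32.3% in the middle and 31.7% to 32.6% in the right section.

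**Figure D3:**
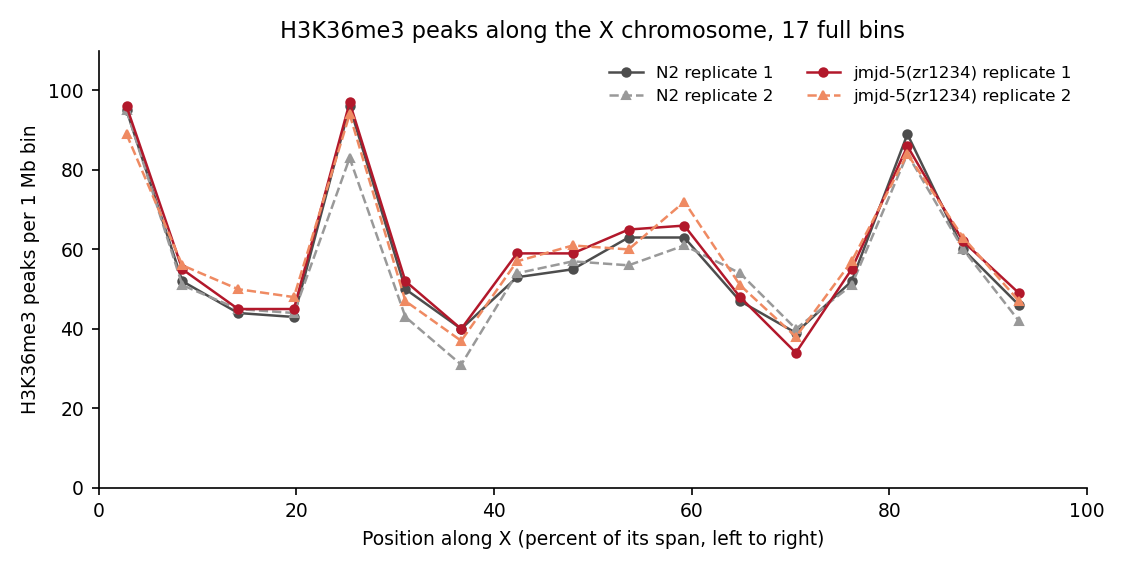
Number of H3K36me3 peaks in each of the 17 full 1 Mb bins of X (vertical axis) against position in percent of the span of X (horizontal axis), with 1 line per library. All 4 lines peak in bins 1, 5 and 15 (83 to 97 peaks) and fall to 31 to 40 peaks in bin 7.

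The profile was nearly the same in both genotypes. Across the 17 full bins the mean counts of N2 and *jmjd-5(zr1234)* correlated with r = 0.986, beside 0.965 between the N2 and 0.980 between the *jmjd-5(zr1234)* libraries, as a description of bins that share libraries. In 8 of the 18 bins of X (44.4%) both *jmjd-5(zr1234)* libraries held more peaks than both N2 libraries, against 17.5% of the 103 bins of the genome. In 1 bin of X (5.56%, against 32.0% of all bins) they held fewer, and in 9 the genotypes overlapped. The bin with fewer was bin 13, with 39 and 40 peaks in N2 and 34 and 38 in *jmjd-5(zr1234)* animals. The largest difference was in bin 11, with 63 and 61 peaks in N2 and 66 and 72 in *jmjd-5(zr1234)* animals.

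Peaks on X came in short runs. The median gap between neighbouring X peaks was 900 and 879 bp in N2 and 828 and 767 bp in *jmjd-5(zr1234)* animals, close to the 808 to 888 bp on autosomes, although X held far fewer peaks per Mb. With peaks less than 1 kb apart joined, X held 470 to 506 islands per library, of which 215 to 239 were single peaks and 30 to 37 had 5 or more peaks. The largest island held 13 to 15 peaks. Between islands, 111 to 116 gaps per library were over 50 kb long. The longest stretches of X without a peak in any of the 4 libraries were chrX:12170804-12396314 (226 kb), chrX:1616184-1840792 (225 kb) and chrX:8913808-9105411 (192 kb). None of the 3 stretches held a region of H3K36me2, defined as a region with a peak in both libraries of a genotype. They held 45, 106 and 16 regions of H3K27me3, the mark of Polycomb repression, in N2 and 51, 113 and 24 in *jmjd-5(zr1234)* animals. The whole of X held 2407 and 2647 regions of H3K27me3, but only 157 and 234 of H3K36me2. Whether the stretches differ from the rest of X in these marks was not tested.

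The 8 strongest X regions were single peaks in each library and 322 to 1343 bp long. The median length of X regions in all 4 libraries was 592 bp. Among regions with a peak in all 4 libraries, the highest mean fold enrichment was at chrX:11972681-11973002 (322 bp), with 6.24 and 6.82 in N2 and 6.91 and 7.02 in *jmjd-5(zr1234)* animals. Next came chrX:157032-157483, with 6.32 and 5.60 in N2 and 7.57 and 7.56 in *jmjd-5(zr1234)* animals, and this region also carried H3K36me2 in both genotypes. At chrX:162251-162929, 4767 bp further right, the values were 6.20, 6.32, 6.81 and 6.58, and the region carried H3K36me2 in *jmjd-5(zr1234)* animals only. These neighbours lie in bin 1, the bin with most H3K36me2 on X. The values of chrX:11944531-11945316 were 6.27, 5.73, 6.53 and 6.90, those of chrX:956596-956985 were 5.97, 6.74, 6.14 and 6.40, and those of chrX:7250762-7251162 were 5.80, 5.89, 6.24 and 6.25. The remaining pair of the 8 strongest had lower values in *jmjd-5(zr1234)* animals. At chrX:14130825-14132167 the values were 6.64 and 7.20 in N2 and 5.63 and 5.73 in *jmjd-5(zr1234)* animals, and at chrX:12970605-12971428 they were 7.61 and 6.21 against 5.55 and 4.95. None of the 8 regions carried H3K27me3, and 6 of them carried no H3K36me2.

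The longest regions were not the strongest. The region at chrX:4596143-4600653 (4511 bp) had a highest fold of 5.61 and 5.70 in N2 and 5.71 and 5.52 in *jmjd-5(zr1234)* animals, was split into 2 peaks in the wild-type and 3 in the *jmjd-5(zr1234)* lists, lay in bin 5 and carried H3K36me2 in both genotypes. The region at chrX:3117894-3122212 (4319 bp) was 1 peak in each list, with 5.09, 5.33, 4.68 and 4.59. The regions at chrX:9810544-9814540 (3997 bp), chrX:4839007-4842943 (3937 bp) and chrX:1480222-1484073 (3852 bp) had values between 3.56 and 5.47. These 4 carried neither H3K36me2 nor H3K27me3.

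Between the genotypes, *jmjd-5(zr1234)* animals had slightly more of their H3K36me3 peaks on X. Both mutant libraries had a larger X share than both N2 libraries, by 0.461 percentage points (7.96% ± 0.102 against 7.5% ± 0.233, SD, n = 2 each). An exact permutation test of 2 libraries against 2 cannot go below p = 0.333, its value here (adjusted p = 0.5 over 9 comparisons of genotypes) and for each comparison of libraries below in which the genotypes did not overlap. X peaks covered 618 and 636 kb in N2 and 641 and 648 kb in *jmjd-5(zr1234)* animals, a difference of 17.7 kb without overlap. Autosomal peaks covered 7047 and 7474 kb against 6846 and 7065 kb. The X share of the covered length was 8.06% and 7.84% in N2 and 8.56% and 8.40% in *jmjd-5(zr1234)* animals. The difference in covered length was 8.83 kb without N2 replicate 1, 26.6 kb without N2 replicate 2, 41.0 kb among peaks at a −log10 p of 20 or more and 44.4 kb among the 10000 strongest peaks. The difference in X share was 0.297 percentage points without N2 replicate 2, 0.806 among peaks at a −log10 p of 20 or more, and 0.850 among the 10000 strongest peaks.

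The median fold enrichment of X peaks was higher in both *jmjd-5(zr1234)* libraries by 0.07 on the log2 scale (exact permutation test, p = 0.333), while autosomal medians overlapped between genotypes. The difference on X was 0.03 without N2 replicate 2, 0.11 without N2 replicate 1 and 0.04 among the 10000 strongest peaks. It was also 0.04 at a −log10 p of 20 or more, where the genotypes overlapped (exact permutation test, p = 0.667). Relative to the autosomes of its own library, X was at -0.32 and -0.34 in N2 and at -0.27 and -0.29 in *jmjd-5(zr1234)* animals, a difference of 0.05 without overlap (p = 0.333, exact permutation test). The median width overlapped between the genotypes, with a difference of -14.0 bp (exact permutation test, p = 0.667). This was -35.75 bp without overlap at a −log10 p of 20 or more (exact permutation test, p = 0.333), -30.25 bp among the 10000 strongest peaks, -5.5 bp with close peaks merged, -0.5 bp without N2 replicate 2, -27.5 bp without N2 replicate 1 and -7.5 bp without *jmjd-5(zr1234)* replicate 1. The shares in the middle and right sections differed by 0.618 and -0.609 percentage points without overlap, and the share in the left section by -0.01. At a −log10 p of 20 or more the middle and right sections differed by 1.55 and -1.92 points, and among the 10000 strongest peaks by 1.16 and -2.19. The right section differed by -0.361 points without N2 replicate 2, and by -0.363 with close peaks merged, where the genotypes overlapped.

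Most X regions were found in both genotypes. Joined over the libraries, X peaks formed 1156 regions, of which 809 (70.0%) had a peak in all 4 libraries, 95 in 3, 104 in 2 and 148 in 1, while 77.4% of the autosomal regions had a peak in all 4. Regions in all 4 libraries had a median fold of 3.78 and a median length of 592 bp. Those in fewer libraries had medians of 2.80 to 2.95 and 220 to 318 bp. A region was counted for a genotype where both its libraries had a peak, which gave 878 X regions in N2 and 943 in *jmjd-5(zr1234)* animals. Of these, 808 were shared. Another 55 were seen in N2 alone and 99 in *jmjd-5(zr1234)* alone. The shared part was 84.0% of X regions (95% Wilson interval 81.5% to 86.2%) and 88.9% of autosomal regions (88.3% to 89.4%). These intervals are for counting error only and leave out the spread between libraries. On X, 93.7% of the wild-type regions were found in *jmjd-5(zr1234)* animals and 89.5% of the *jmjd-5(zr1234)* regions in N2. On autosomes the order was the other way round, with 93.3% and 95.1%, and the difference in order was not tested. The shared part of X was 76.2% among peaks at a −log10 p of 20 or more and 71.2% among the 10000 strongest.

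The overlap in bases gave the same order of sizes. The Jaccard index of X peaks, the bases covered in both libraries over those covered in either, was 0.840 for the pair of N2 libraries and 0.859 for the *jmjd-5(zr1234)* pair, with a mean of 0.822 over the 4 pairs across genotypes. Pairs within a genotype exceeded pairs across genotypes by 0.0271 on average (exact permutation test for an excess only, p = 0.333, its lowest possible value), and by 0.0457 among the 10000 strongest peaks. On autosomes the difference was 0.0195, and there 2 of the 4 pairs across genotypes (0.864 and 0.863) exceeded the N2 pair (0.852). On X, the pair of N2 replicate 1 and *jmjd-5(zr1234)* replicate 2 reached 0.838, nearly the 0.840 of the N2 pair.

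Regions found in both libraries of 1 genotype and in neither of the other were few and weak. On X, 20 were specific to N2 (1.73% of the 1156 X regions), with a median fold of 2.81 and a median length of 283.5 bp. Another 38 (3.29%) were specific to *jmjd-5(zr1234)*, with medians of 2.65 and 286 bp. On autosomes the order was the reverse, with 269 for N2 (2.01% of the 13385 autosomal regions) and 206 for *jmjd-5(zr1234)* (1.54%). The difference between these shares was not tested. The strongest in N2 only were at chrX:12994973-12995210 (3.79 and 4.62), chrX:6727329-6727624 (4.15 and 3.91), chrX:154716-154950 (3.88 and 3.97), chrX:14704037-14704290 (4.35 and 3.20) and chrX:17024978-17025267 (3.24 and 4.15). The strongest in *jmjd-5(zr1234)* only were at chrX:2377856-2378107 (4.43 and 4.44), chrX:1986706-1986967 (4.30 and 4.38), chrX:13153340-13153572 (4.03 and 4.17), chrX:4431603-4431839 (4.48 and 3.62) and chrX:835744-835967 (3.86 and 4.13). Each of these 10 was 224 to 296 bp long and carried neither of the other marks. This did not hold for all such regions. Of the 38 specific to *jmjd-5(zr1234)*, 5 (13.2%) carried H3K36me2 and 3 (7.89%) H3K27me3 in these animals, against 10.5% and 0.618% of X regions in all 4 libraries. Of the 20 specific to N2, 4 (20%) carried H3K36me2 in N2, against 5.69%, and 0 carried H3K27me3. These differences were not tested. Since weaker peaks were not listed, a region without a peak may hold a weaker signal.

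In the 809 regions with a peak in all 4 libraries, the fold enrichment differed between the genotypes in both directions. As deposited, both mutant libraries were above both N2 libraries in 311 X regions (38.4%), against 30.6% of all 11174 regions of the genome, and below them in 144 (17.8%), against 24.7% of all regions. The median log2 difference was then 0.08 on X and 0.02 on autosomes. With each library centred on its median over all regions, a count added after the values were seen, 298 X regions were above (36.8%, against 29.3% of all) and 161 below (19.9%, against 27.4%), and the median difference was 0.06 on X and 0.00 over all regions. With the libraries centred on their medians and tested with limma over all 11174 regions, 73 X regions (9.02%) passed a Benjamini-Hochberg adjusted p of 0.05, near the 9.67% of all regions. Of these, 51 rose (6.30%, against 5.18% of all regions) and 22 fell (2.72%, against 4.48%). Among all regions, 579 rose and 501 fell. At an unadjusted p under 0.05 there were 221 X regions (27.3%, against 27.6% of all). The calls needed all 4 libraries. Without N2 replicate 1 or without N2 replicate 2 no X region passed, with the lowest adjusted p at 0.0530 and 0.0583 and 200 and 189 X regions at an unadjusted p under 0.05. Without *jmjd-5(zr1234)* replicate 1 there were 6 calls, 2 higher and 4 lower, and without replicate 2 there was 1 in each direction, where the lone library of a genotype is assumed to vary like the others.

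**Figure D4:**
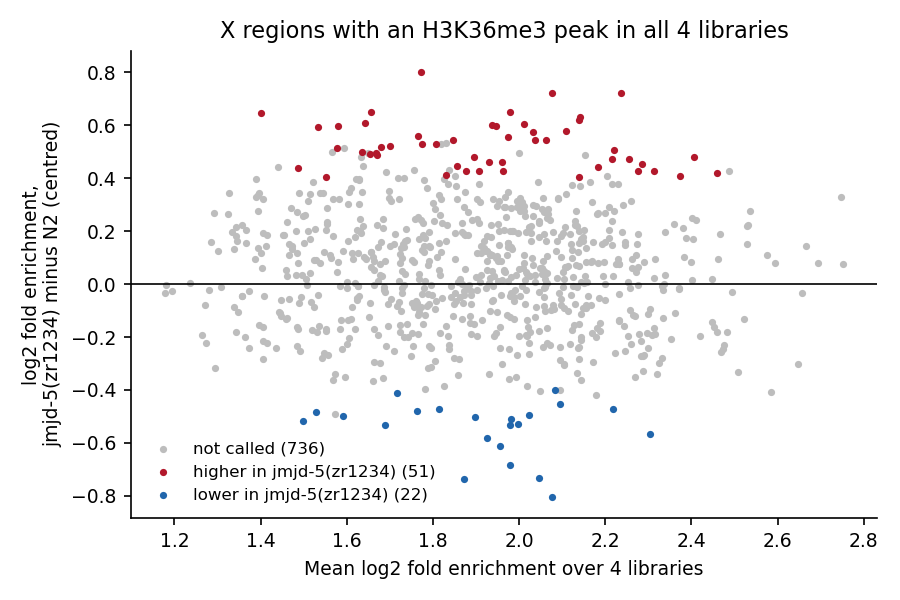
Difference in log2 fold enrichment, *jmjd-5(zr1234)* minus N2 with libraries centred (vertical axis), against the mean log2 fold enrichment (horizontal axis) for the 809 X regions with a peak in all 4 libraries, coloured by the limma call at an adjusted p of 0.05. The 51 regions called higher (red) and 22 called lower (blue) differ by 0.40 to 0.80 on the log2 scale and spread over most of the range of enrichment.

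The median fold was 3.83 for the regions that rose, 3.91 for those that fell and 3.76 for the 736 not called. Of the 292, 255 and 262 regions in the left, middle and right section, 30, 13 and 30 were called (10.3%, 5.10% and 11.5%). Of the 51 regions that rose, 2 carried H3K36me2 in N2 and 3 in *jmjd-5(zr1234)* animals, as did 2 and 3 of the 22 that fell, and none of the 73 carried H3K27me3 in either genotype. Few of the other regions did either. Of the 736 not called, 42 carried H3K36me2 in N2 and 79 in *jmjd-5(zr1234)* animals, and 9 carried H3K27me3. Over all 809 regions, 46 (5.69%) carried H3K36me2 in N2 and 85 (10.5%) in *jmjd-5(zr1234)* animals. H3K27me3 was carried by 9 (1.11%) in N2 and 5 (0.618%) in *jmjd-5(zr1234)* animals, so that none among 73 is near these shares.

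The largest increase was at chrX:14129398-14129850, with fold enrichments of 2.49 and 2.65 in N2 and 4.28 and 4.81 in *jmjd-5(zr1234)* animals (centred log2 difference 0.80, SE 0.12, limma adjusted p = 0.01003). It lay 974 bp to the left of chrX:14130825-14132167, one of the strongest X regions, where the difference was -0.30 (SE 0.12, limma adjusted p = 0.124, not called). At chrX:17026103-17026703 the values were 3.79 and 3.51 in N2 and 6.04 and 6.15 in *jmjd-5(zr1234)* animals (0.72, SE 0.11, limma adjusted p = 0.0101). The region 835 bp to its left, chrX:17024978-17025267, was among those with a peak in N2 only. At chrX:14239582-14240378 the values were 4.08 and 2.61 against 5.36 and 5.54 (0.72, SE 0.17, limma adjusted p = 0.0269), with wide spread between the N2 libraries. The difference was 0.43 without N2 replicate 2 and 1.01 without N2 replicate 1. All 3 regions lie in the right section of X.

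The largest decrease was at chrX:17152484-17152835, with 5.70 and 5.37 in N2 and 3.16 and 3.26 in *jmjd-5(zr1234)* animals (-0.80, SE 0.11, limma adjusted p = 0.00870). At chrX:15271155-15271674 the values were 5.09 and 4.33 in N2 and 3.62 and 2.25 in *jmjd-5(zr1234)* animals (-0.74, SE 0.19, limma adjusted p = 0.0340), and the difference was -0.40 without *jmjd-5(zr1234)* replicate 2 and -1.07 without replicate 1. At chrX:3098532-3098989 they were 5.12 and 5.45 against 3.33 and 3.13 (-0.73, SE 0.12, limma adjusted p = 0.0106). None of these 6 regions carried H3K36me2 or H3K27me3. The strong region at chrX:157032-157483 had a difference of 0.33 (SE 0.11, limma adjusted p = 0.0916, not called), and the region 2081 bp to its left, chrX:154716-154950, had a peak in N2 only. The strong region at chrX:12970605-12971428 had a difference of -0.41 (SE 0.13, limma adjusted p = 0.0634, not called).

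Few H3K36me3 peaks on X carried H3K36me2, the dimethylated form of the same residue, and more did so in *jmjd-5(zr1234)* animals. In wild-type, 61 of 1023 and 56 of 989 X peaks (5.96% and 5.66%) overlapped an H3K36me2 region of the same genotype, and in *jmjd-5(zr1234)* animals 109 of 1055 and 105 of 1049 (10.3% and 10.0%). On autosomes the shares were 37.7% and 36.2% in N2 and 37.8% and 37.1% in *jmjd-5(zr1234)* animals. X minus autosomes was -29.2 ± 2.31 percentage points (SD, n = 4, lower in 4 of 4 libraries, exact sign-flip permutation test, p = 0.125, its lowest possible value). Between the genotypes, the share on X differed by 4.36 percentage points without overlap and that on autosomes by 0.450 with overlap. Both H3K36me3 libraries of a genotype were set against the same H3K36me2 regions, so that they are not independent for this difference.

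The difference was of like size when only the H3K36me2 regions were exchanged. X held 157 of them in N2 and 234 in *jmjd-5(zr1234)* animals. Wild-type H3K36me3 peaks set against the *jmjd-5(zr1234)* regions overlapped in 9.78% and 9.40% of cases, and *jmjd-5(zr1234)* peaks set against the wild-type regions in 5.59% and 5.24%. It was smaller without the weak H3K36me2 peaks. At a −log10 p of 20 or more in both marks, X held 75 and 92 H3K36me2 regions, and the share of H3K36me3 peaks over them was 2.61% in N2 and 3.22% in *jmjd-5(zr1234)* animals, a difference of 0.610 percentage points. With this threshold on H3K36me2 alone, tried after the result was seen, the difference was 0.975, and with it on H3K36me3 alone 4.05. Among the 10000 strongest peaks of each library it was 1.94, and with H3K36me2 peaks of either library 6.57.

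The share was highest in the left section of X in each library. This section held 75.4% and 80.4% of the overlapping X peaks in N2 and 53.2% and 56.2% in the mutant. There, 12.3% and 12.7% of wild-type and 15.1% and 15.6% of *jmjd-5(zr1234)* H3K36me3 peaks carried H3K36me2. In the middle section the shares were 1.24% and 0.641% against 3.86% and 2.65%. In the right section they were 3.35% and 2.80% against 11.4% and 11.1%. The genotypes did not overlap in any section, and whether the sections differed in this was not tested. Bin 1 alone held 85 of the 157 wild-type and 91 of the 234 *jmjd-5(zr1234)* H3K36me2 regions of X. Peaks over H3K36me2 were weaker than the other X peaks of their library, with log2 differences of -0.19 to -0.14 (mean -0.17, exact sign-flip permutation test, p = 0.125, its lowest possible value) and wider by 13.0 to 57.5 bp. Seen from the other mark, 37.6% and 33.1% of the H3K36me2 regions of X in N2 and 45.3% and 44.0% in *jmjd-5(zr1234)* animals overlapped an H3K36me3 peak, against 47.8% to 48.8% on autosomes.

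**Figure D5:**
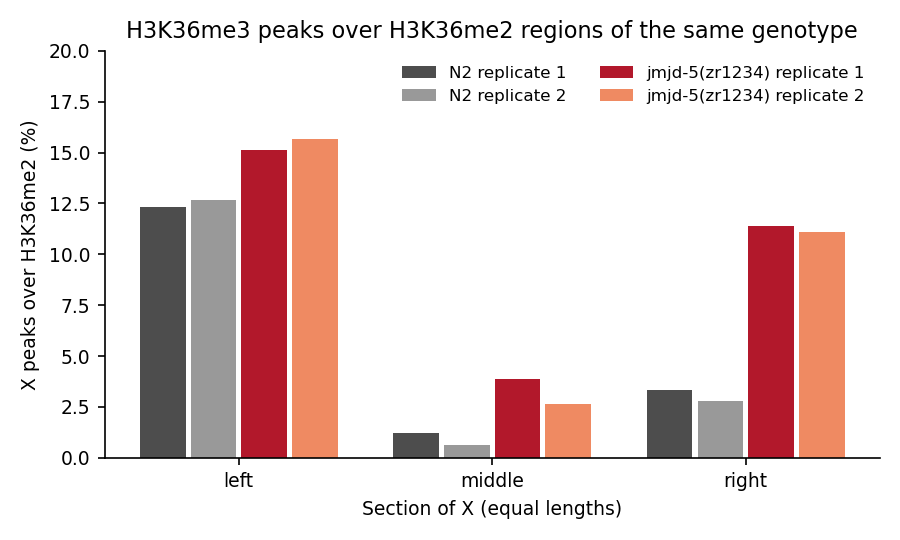
Share of X peaks that overlap an H3K36me2 region of the same genotype, in percent, for the left, middle and right section of X, with 1 bar per library. The left section has the highest bars (12.3% to 15.6%), and the right section has 3.35% and 2.80% in N2 and 11.4% and 11.1% in *jmjd-5(zr1234)* animals.

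H3K36me3 and H3K27me3 were nearly exclusive on X, as on autosomes. Of the X peaks, 16 and 11 in N2 and 16 and 14 in *jmjd-5(zr1234)* animals overlapped an H3K27me3 region (1.56%, 1.11%, 1.52% and 1.33%), although X held 2407 such regions in N2 and 2647 in *jmjd-5(zr1234)* animals. On autosomes the shares were 1.26%, 0.960%, 1.48% and 1.34%. X minus autosomes was 0.122 ± 0.140 percentage points (SD, n = 4, higher in 3 of 4 libraries, exact sign-flip permutation test, p = 0.25). It was 0.393 points at a −log10 p of 20 or more and 0.355 among the 10000 strongest peaks (exact sign-flip permutation test, p = 0.125 each), 0.209 with an overlap of at least 50% of the peak, 0.277 with H3K27me3 peaks of either library and 0.0610 without N2 replicate 1. The genotypes overlapped on X with a difference of 0.0875 points (exact permutation test, p = 1). Most of the overlapping peaks were in the left section, where the share was 2.82% to 3.22%, against at most 0.621% elsewhere. They were weaker than the other X peaks of their library, with log2 differences of -0.49 to -0.17, and narrower, with differences of -138.5 to -59.5 bp.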

How the data were processed

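The members, lists and tests were chosen with earlier results of these data known. Per the labels and the methods, the authors used Bowtie for alignment without multimapping reads, samblaster against duplicates and MACS2 at a p threshold of 1e-05 for peaks of single libraries. The deposited columns are a fold ratio (enrichment over the control), −log10 p, −log10 q-value and a score of the peak. No listed −log10 p is under 10, and positions are on ce10 per the labels. Fold values were not scaled to the spike-in. The score and q-value were not used, nor were the RNA tables, and the authors' fold changes and p-values of RNA were not read. The reference tables given are of WBcel235, another build, so that no gene was assigned and no sequence is given.

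Lists were analysed with Python 3.11.15, NumPy 2.4.6, pandas 2.3.3, SciPy 1.17.1 and matplotlib 3.10.9. Regions of H3K36me2 or H3K27me3 are merged peaks that hold a peak of both libraries of a genotype at 25°C, and 1 bp counted as overlap. The value of a region is its highest fold enrichment in a library, on the log2 scale. Libraries were compared by exact two-sided permutation or sign-flip tests, except that the Jaccard index was tested only for an excess within genotypes. Regions were compared with limma 3.58.1 in R 4.3.3 (log2 fold centred on each library's median, genotype as the only term, eBayes, Benjamini-Hochberg over 11174 regions, adjusted p under 0.05). The 3 sections of X divide the span from the first to the last X peak of any mark. Named regions are the 8 with the highest mean log2 fold and the 5 longest among those in all 4 libraries, the 3 with the largest difference in each direction among those whose genotypes do not overlap, the 5 strongest in both libraries of only 1 genotype, the longest peak-free stretch and the bins with most and fewest peaks. The other stretches and bins 5, 11, 13 and 15 were added after their values were seen.

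In 50 of 50 simulations the interval procedures matched bedtools 2.31.1. Of 200 simulated regions changed by 1 on the log2 scale among 11174, limma recovered 200, and of 200 changed by 0.5 it recovered 84, with 9 and 3 unchanged regions called. The simulated spread was the same normal spread for every region. Real regions differ in theirs, so that these counts may not hold for the data. Alternatives were a −log10 p of at least 20, the 10000 strongest peaks, merging of peaks under 200 bp apart, an overlap of 50%, peaks of either library, each library left out, a replicate block, no centring, quantile normalization and a trend in eBayes.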

Additional observations from a re-analysis of the deposited data

How the results depend on the processing

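The labels link libraries of the genotypes only by the replicate number, and do not say whether it stands for a shared culture or batch. Deviations of same-numbered libraries from their genotype means correlated with r = 0.07 over the 809 X regions, and with 2 pairs this says little. With the replicate number as a block in limma, 136 of the 809 X regions were called in place of 73, 95 higher and 41 lower. Over all 11174 regions the calls rose from 1080 to 2054, so that the rise was not particular to X. The replicate block left the other differences between genotypes at their values, with p = 0.5 as the smallest a sign-flip test of 2 pairs can give. Among the 10000 strongest peaks 40 of 422 X regions were called, beside 1026 of all 8122 regions. Without 1 library each, 0 to 6 X regions were called. The other settings of limma gave 56 to 81 X regions, beside 1046 to 1209 over all regions tested.

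The shared part of X regions was 76.2% at a −log10 p of at least 20, 71.2% among the 10000 strongest peaks and 79.9% to 84.5% without 1 library each, in place of 84.0%. The difference of the left section, -0.01 percentage points, turned to 0.367 at a −log10 p of at least 20 and to 1.02 among the 10000 strongest peaks, and ranged from -0.293 to 0.274 without 1 library each. The difference in H3K27me3 overlap, 0.0875 points, turned to -0.226 among the 10000 strongest peaks and ranged from -0.138 to 0.313 without 1 library each. The cause was not tested. The other results kept their direction under each alternative run. The 6 named regions that changed lost their call without 2 to 4 of the 4 libraries in turn and kept their direction, and chrX:12970605-12971428 was called lower under 4 settings.

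With 2 libraries per genotype no exact test of a genotype difference can pass 0.05. Depth is unknown, the lists do not hold signal below their threshold, and fold enrichment is relative to a control.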
